A study of Mus musculus with 12 samples.

Results

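The cytosolic and mitochondrial heat shock chaperones are described here through a list of 38 genes given by symbol, covering the HSP70, HSP110, HSP90, HSP40, small heat shock protein, HSP60 with HSP10, CCT, co-chaperone and heat shock factor families. Of these, 36 had a probe set paired with that gene alone, out of 18193 genes on the array, and each gene was read through its brightest such probe set. Hsp90ab1 and Hsf1 had none in the probe table used here and were not analysed here. The study measured gene expression in the striatum, the forebrain nucleus most affected in Huntington's disease, with Affymetrix Mouse Genome 430 2.0 arrays. The 12 mice, all C57BL/6 and 1 to an array, formed 4 groups of 3. The wild-type mice were 100 to 103 days old (1 female, 2 males) or 596 to 604 days old (2 females, 1 male), here called 3 and 18 months. The Q92 mice (HdhQ92/Q92) carried 92 CAG repeats, taken from the first exon of the human Huntington's disease gene, in the endogenous mouse gene, so that its own promoter drives the mutant protein, and were 100 to 103 days old (2 females, 1 male) or 567 to 596 days old (2 females, 1 male). No treatment is labelled. Mice are named by group and animal number, and values are given within each group in the order of that number (wt_3m_436, wt_3m_438 and wt_3m_467, then Q92_3m_439, Q92_3m_440 and Q92_3m_466 at 3 months, and wt_18m_9, wt_18m_12 and wt_18m_17, then Q92_18m_11, Q92_18m_25 and Q92_18m_66 at 18 months).

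Heat shock chaperones bind unfolded or misfolded proteins and help them to fold, to be taken apart or to be degraded. HSP70 proteins work in cycles of ATP hydrolysis, in which HSP40 (DNAJ) proteins deliver the substrate and nucleotide exchange factors such as the HSP110 proteins and BAG1 release it, while HSP90, the ring-shaped CCT complex and mitochondrial HSP60 take on particular client proteins. Many of their genes are switched on by heat shock factors that bind repeats of the element GAANNTTC in promoters, and several of the chaperones are known to slow the aggregation of polyglutamine proteins.

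Values are log2 signals as deposited, so a difference of 1 is a doubling, and they were compared with limma at a Benjamini-Hochberg adjusted p of 0.05 over 45037 probe sets. The tissue label was checked against striatal markers, which were bright on every array: Ppp1r1b ran from 9.49 to 11.27, Penk from 10.19 to 11.81 and Drd1 from 9.22 to 10.65. The mean of 8 projection neuron markers, each centred on its mean over all arrays, was 0.05, 0.32 and 0.55 in wild-type and 0.25, 0.50 and 0.23 in Q92 mice at 3 months, and 0.28, 0.10 and 0.18 in wild-type and -0.76, -0.46 and -1.24 in Q92 mice at 18 months. It was lowest in the old Q92 mice, in which all 8 markers had a lower mean than in old wild type (median -0.98). Means were also lower in old Q92 than in old wild-type mice for 7 of 7 astrocyte markers (median -0.33), 8 of 8 immediate early genes (median -0.45), 5 of 5 vascular markers (median -0.17) and 5 of 6 microglia markers (median -0.39). The same held for 6 of 8 oligodendrocyte (median -0.11) and 3 of 3 oligodendrocyte precursor markers (median -0.15), against 9163 of all 18193 genes. With limma 1 of the 8 projection neuron markers passed and 0 markers of these other lists. A list of 4 cortical neuron markers stood at 0.25, -0.21 and -0.14 in old wild-type and 1.499, 1.35 and -0.78 in old Q92 mice, so that 2 of the old Q92 arrays lay above all others and the third, Q92_18m_66, was low. Mouse Q92_18m_66 and mouse wt_3m_467 also had the lowest mean correlations with the other arrays (0.988 and 0.987). The 18S ribosomal RNA control probe sets had a mean of 5.75 to 5.93 in old wild-type and 5.98 to 7.58 in old Q92 mice. In bulk tissue, fewer cells of a type and less RNA per cell cannot be told apart, and the part of these shifts in the chaperone values was not tested.

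No heat shock chaperone passed the test in any comparison. At 18 months 0 of 36 members passed with limma between Q92 and wild-type mice, against 0.0533% of all probe sets, and 3 had an unadjusted p under 0.05 (8.33%, against 7.90% of all probe sets). At 3 months 0 of 36 passed, against 0.0111%, and 2 had an unadjusted p under 0.05 (5.56%, against 2.64%). The interaction, which is the genotype difference at 18 months minus that at 3 months, gave 0 of 36, against 0% of all probe sets, and 2 had an unadjusted p under 0.05 (5.56%, against 5.18%). Between 18 and 3 months 0 of 36 passed in wild type, against 0.0511%, and 0 of 36 in Q92, against 0.206%, with 2 and 6 members at an unadjusted p under 0.05 (5.56% and 16.7%, against 10.6% for both). Each count of 0 also held in every other setting tried, in which the lowest adjusted p of any member was 0.0914. All 97 probe sets of the 36 members were read as well, and 0 of 97 passed in any comparison (lowest adjusted p 0.136, a probe set of Dnajc6, for age in Q92 mice).

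The chaperones gave bright signals, which tells how well they were measured and not how abundant each is. The median signal of the 36 members was 9.02 on the log2 scale against 5.99 over all genes, and 33 of 36 lay above the median of all genes. Their median within-group SD was 0.11 against 0.15 for all genes, and the median member stood at the 20.2nd percentile of SD among all genes but at the 41.1st among genes of like signal. Hspa8, the constitutive HSP70 of the cytosol, was the steadiest, with a within-group SD of 0.038, and Hspa1b, a stress-inducible HSP70, the least steady with 0.50, which was above 98.7% of all genes. The 95% interval of the genotype difference at 18 months lay within a 1.5-fold change in either direction for 33 of 36 members, the exceptions being Hspa1b, Hspa12a and Hspb8. At 3 months this held for 35 of 36, all but Hspa1b. For the interaction only 27 of 36 intervals lay within a 1.5-fold change in either direction.

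**Figure D1:**
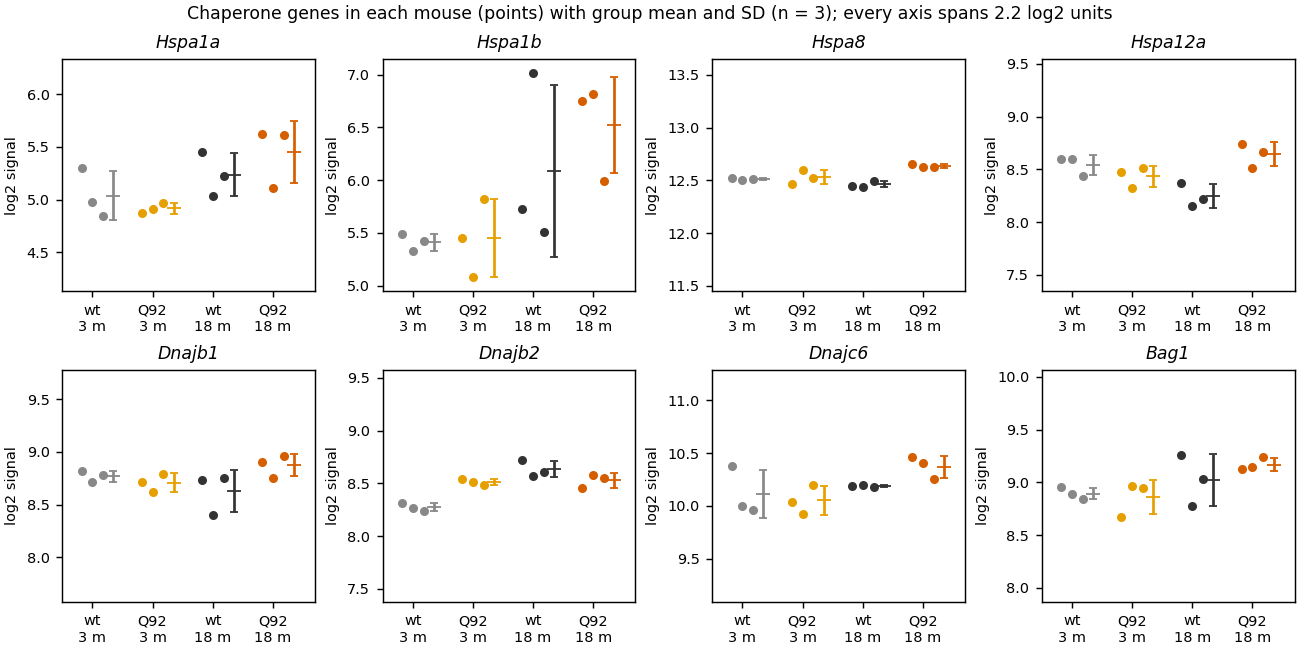
Log2 signal of 8 chaperones (Hspa1a, Hspa1b, Hspa8, Hspa12a, Dnajb1, Dnajb2, Dnajc6 and Bag1) by genotype and age, with 1 point per mouse and the group mean with SD (n = 3) beside it, on axes of equal span. Hspa8 hardly spreads, while Hspa1b runs from 5.08 to 7.02.

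Q92 and wild-type mice were compared at 18 months, the age at which the projection neuron markers were lower. Means were higher in Q92 mice for 22 members and lower for 14, with a median difference of 0.05, against -0.0014 over all genes. These directions are of brightest probe sets, and 15 of the 27 members with more than 1 probe set had probe sets that differed in sign. The 3 old Q92 mice all lay below the 3 old wild-type mice for 0 of 36 members. This compares with 6.76% of all probe sets and 1367 of the 18193 genes, each read by its brightest probe set. The old Q92 mice all lay above for 10 of 36 (27.8%), against 7.02% of all probe sets and 1183 genes. Those 10 were Hspa8 and Hspa12a of the HSP70 family, Hsp90aa1, the HSP40 genes Dnajb1, Dnajb6, Dnajc5 and Dnajc6, the CCT subunits Cct5 and Cct8, and Hsf2. With any 1 of the 6 mice left out the count was 11 to 13 higher and 0 to 2 lower, against 10.1% to 13.9% and 10.3% to 13.7% of all probe sets. Leaving a mouse out cannot lower such a count, so these counts are no check on the 10. The median difference was 0.094 without mouse wt_18m_9 and 0.076 without mouse Q92_18m_11, and 0.083 with a block for age in days, in which the comparison rests on Q92_18m_11, wt_18m_12 and wt_18m_17, the mice of 1 age.

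Among the HSP70 genes, 6 of 7 means were higher in the old Q92 mice (median difference 0.17). Hspa12a, an atypical HSP70 that is abundant in brain, read 8.60, 8.60 and 8.43 in wild-type and 8.47, 8.32 and 8.51 in Q92 mice at 3 months, and 8.37, 8.15 and 8.22 in wild-type and 8.74, 8.52 and 8.67 in Q92 mice at 18 months. All old Q92 mice lay above all old wild-type mice, and 2 old wild-type mice were the lowest of the 12. The difference at 18 months was 0.40 (SE 0.10, 95% interval 0.18 to 0.61, limma adjusted p = 0.242), or 1.32-fold, and its lowest adjusted p in any other setting was 0.156. At 3 months it was -0.11 (SE 0.10, limma adjusted p = 1.00), and the interaction was 0.51 (SE 0.14, limma adjusted p = 0.900). Of its 4 probe sets, 3 were higher in old Q92 mice (-0.02 to 0.46), and their mean gave 0.26.

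Hspa8, which also uncoats clathrin-coated vesicles, read 12.52, 12.50 and 12.51 in wild-type and 12.47, 12.60 and 12.52 in Q92 mice at 3 months, and 12.45, 12.44 and 12.50 in wild-type and 12.66, 12.63 and 12.62 in Q92 mice at 18 months. The old Q92 mice were the 3 highest of the 12 and 2 old wild-type mice were the lowest, with a difference of 0.17 (SE 0.08, limma adjusted p = 0.609). The brightest probe set gave the highest difference: of 4 probe sets 3 were higher and 1 lower (-0.24 to 0.17), and their mean gave 0.03. Hspa2 (6.36 to 6.96 over the 12 mice), an HSP70 best known from the testis, differed by 0.14, and Hspa9 (8.61 to 8.86), the mitochondrial HSP70, by 0.02. Hspa14 (7.40 to 7.84), which is bound to ribosomes, differed by -0.05 and was the HSP70 gene with the lower mean.

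The HSP110 genes Hspa4, Hspa4l and Hsph1 act as nucleotide exchange factors for HSP70. By their brightest probe sets, 0 of 3 had a higher mean in Q92 mice at either age. Their differences at 18 months were -0.05, -0.10 and -0.02, and at 3 months -0.19, -0.20 and -0.11 (limma adjusted p of all 3 at 3 months 1.00). At 3 months Hspa4 read 9.23, 9.33 and 9.06 in wild-type and 8.82, 9.17 and 9.06 in Q92 mice, and at 18 months 8.93, 9.16 and 9.03 and 9.08, 8.91 and 8.97. Mouse Q92_3m_439 was the lowest of the 12. Hspa4l read 8.66, 8.81 and 8.73 in wild-type and 8.26, 8.73 and 8.62 in Q92 mice at 3 months, and 8.81, 8.75 and 9.02 in wild-type and 8.65, 8.67 and 8.95 in Q92 mice at 18 months. Here too Q92_3m_439 was the lowest. The 3-month differences of Hspa4 and Hspa4l rested on it in part, at -0.09 and -0.06 without Q92_3m_439. With another mouse left out they reached -0.27 and -0.30. Their other probe sets did not all share the direction. At 18 months 2 of 4 probe sets of Hspa4 (-0.07 to 0.19) and 3 of 5 of Hspa4l (-0.10 to 0.15) were higher in Q92 mice. At 3 months 1 of 4 and 1 of 5 were higher, while 2 of 2 probe sets of Hsph1 were lower at either age. 

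Hsp90aa1, the inducible cytosolic HSP90, read 11.83, 11.86 and 11.93 in wild-type and 11.74, 11.99 and 11.67 in Q92 mice at 3 months, and 11.83, 11.63 and 11.75 in wild-type and 11.96, 11.87 and 11.88 in Q92 mice at 18 months. Its old Q92 mice were above all old wild-type mice, while at 3 months the Q92 mice held both the highest and the lowest value. The differences were 0.17 (SE 0.10, limma adjusted p = 0.736) at 18 months and -0.07 at 3 months, and 0.24 (SE 0.14, limma adjusted p = 0.950) for the interaction. Over its 5 probe sets the difference at 18 months ran from -0.01 to 0.51, with 3 higher and 2 lower (smallest limma adjusted p = 0.242).

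HSP40 proteins stimulate the ATPase of HSP70. Dnajb1, the main stress-inducible HSP40 of the cytosol, had values of 8.74, 8.40 and 8.75 in wild-type and 8.91, 8.76 and 8.96 in Q92 mice at 18 months, and 8.82, 8.71 and 8.78 and 8.72, 8.62 and 8.79, in the same order, at 3 months. The groups did not overlap at 18 months, though narrowly, and mouse wt_18m_12 was the lowest of all. The difference at 18 months was 0.25 (SE 0.11, limma adjusted p = 0.609). With 1 mouse left out it ran from 0.13, without wt_18m_12, to 0.31. Both of its probe sets were higher in old Q92 mice. The interaction was 0.31 (SE 0.15, limma adjusted p = 0.946). With 1 mouse left out it ran from 0.19, without wt_18m_12, to 0.37.

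Dnajb6, a strong suppressor of polyglutamine aggregation, read 9.82, 9.81 and 9.70 in wild-type and 9.69, 9.84 and 9.92 in Q92 mice at 3 months, and 9.88, 9.83 and 9.87 in wild-type and 10.10, 9.98 and 9.95 in Q92 mice at 18 months. The 3 old Q92 mice were the highest of all 12, and the difference at 18 months was 0.15 (SE 0.09, limma adjusted p = 0.728). It was 0.26 with the block for age in days, which leaves Q92_18m_11 against wt_18m_12 and wt_18m_17. Dnajc5, the cysteine string protein of synaptic vesicles, had 9.60, 9.61 and 9.60 in young wild type, 9.48, 9.48 and 9.63 in young Q92, 9.55, 9.60 and 9.64 in old wild type and 9.74, 9.65 and 9.79 in old Q92 mice. The old Q92 mice were again above all others, with a difference of 0.13 (SE 0.08, limma adjusted p = 0.745). Dnajc6, or auxilin, brings Hspa8 to clathrin-coated vesicles in neurons and differed by 0.18 (SE 0.12, limma adjusted p = 0.765). Dnaja1 (10.50 to 10.73 over the 12 mice) and Dnaja2 (10.27 to 10.46), HSP40 proteins of the cytosol, differed by 0.05 and 0.07. Dnajb4 (9.44 to 9.75) and Dnajb5 (7.34 to 7.95), relatives of Dnajb1, differed by -0.09 and -0.02.

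Dnajb2, an HSP40 enriched in neurons that takes client proteins to the proteasome, read 8.31, 8.27 and 8.24 in wild-type and 8.54, 8.51 and 8.49 in Q92 mice at 3 months, and 8.72, 8.57 and 8.61 in wild-type and 8.45, 8.58 and 8.55 in Q92 mice at 18 months. The young Q92 mice lay above all young wild-type mice, and the young wild-type mice were the lowest of the 12, while the old groups overlapped. The difference was 0.24 (SE 0.08, 95% interval 0.07 to 0.42, limma adjusted p = 1.00) at 3 months, -0.11 (SE 0.08, limma adjusted p = 0.821) at 18 months and -0.35 (SE 0.11, limma adjusted p = 0.946) for the interaction. Dnaja3, the mitochondrial HSP40, read 8.25, 8.13 and 8.15 in wild-type and 7.90, 8.04 and 7.95 in Q92 mice at 3 months, and 8.24, 8.09 and 8.12 in wild-type and 8.07, 8.16 and 8.16 in Q92 mice at 18 months. It had the young Q92 mice below all young wild-type mice, with a difference of -0.21 (SE 0.08, limma adjusted p = 1.00), which was -0.09 as the mean of its probe sets.

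**Figure D2:**
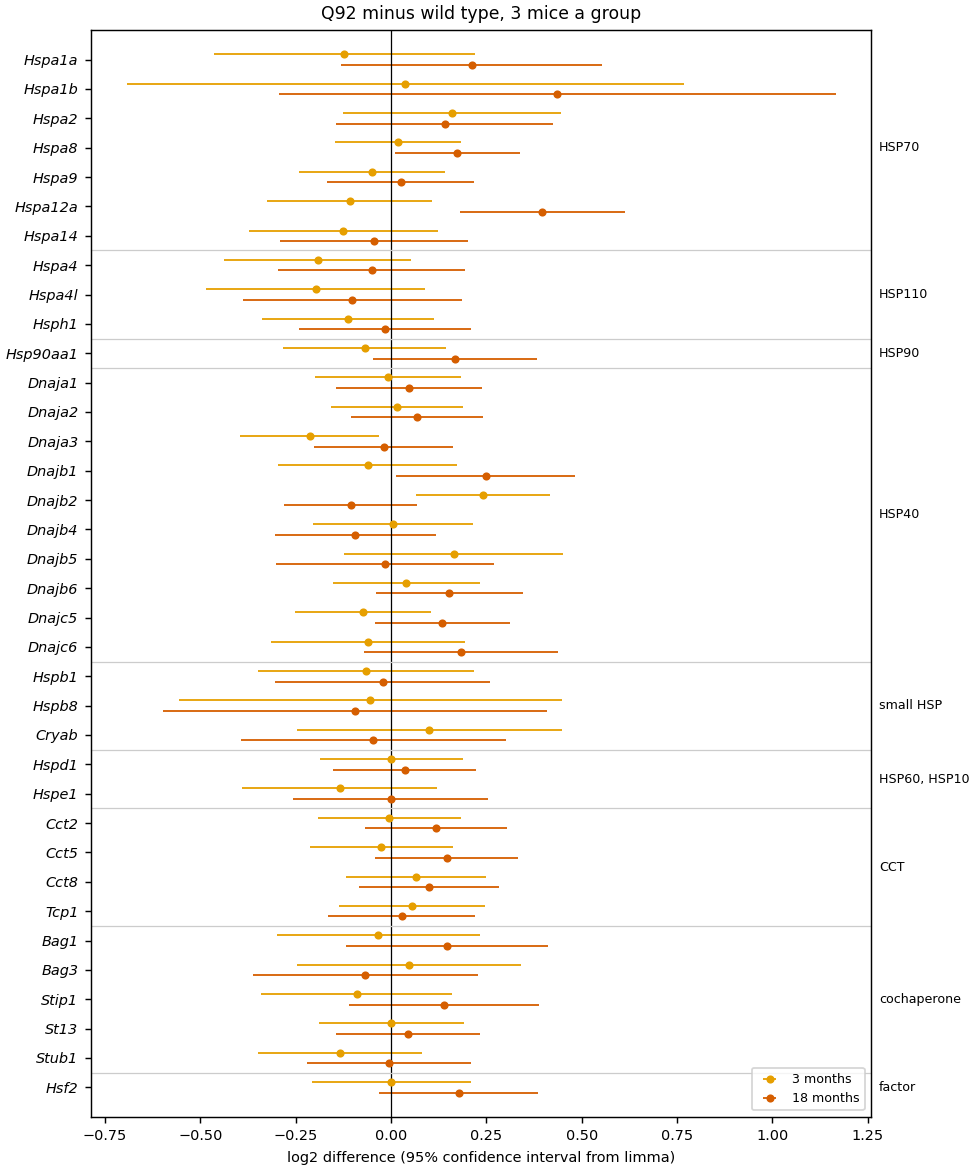
Difference between Q92 and wild-type mice in log2 units for each of the 36 chaperones at 18 and at 3 months, with 95% intervals from limma (n = 3 mice a group). The intervals of most members include 0, and the highest at 18 months are Hspa1b (0.44) and Hspa12a (0.40).

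The CCT subunits Cct2, Cct5, Cct8 and Tcp1 belong to the cytosolic ring that folds actin and tubulin, and CCT is known to act on polyglutamine proteins. All 4 means were higher in old Q92 mice (median difference 0.11), and 0 of 4 passed with limma. Cct5 read 10.09, 9.92 and 9.93 in wild-type and 9.98, 9.92 and 9.96 in Q92 mice at 3 months, and 9.94, 9.96 and 9.89 in wild-type and 10.01, 10.03 and 10.19 in Q92 mice at 18 months. The old Q92 mice were above all old wild-type mice, with a difference of 0.15 (SE 0.09, limma adjusted p = 0.737). The difference was 0.12 for Cct2 (9.97 to 10.27 over the 12 mice), 0.10 for Cct8 (8.87 to 9.13) and 0.03 for Tcp1 (10.40 to 10.63). In mitochondria, Hspd1 (HSP60) and Hspe1 (HSP10) form the folding chamber. Hspd1 ran from 9.69 to 9.91 and Hspe1 from 9.84 to 10.35, and they differed by 0.04 (SE 0.09, limma adjusted p = 0.967) and -0.0012 (SE 0.12, limma adjusted p = 1.00).

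Small heat shock proteins hold unfolded proteins without ATP, and 0 of 3 had a higher mean in old Q92 mice. The difference at 18 months was -0.02 for Hspb1 (7.25 to 7.75 over the 12 mice), -0.09 for Hspb8 and -0.05 for Cryab. Hspb8, which works with Bag3 in selective autophagy, had the largest within-group SD of the 3 (0.34) and read 6.41, 6.28 and 6.32 in wild-type and 6.46, 6.30 and 6.08 in Q92 mice at 3 months, and 5.74, 6.57 and 6.38 in wild-type and 5.81, 5.92 and 6.68 in Q92 mice at 18 months. The lowest value was in an old wild-type and the highest in an old Q92 mouse, and the groups overlapped. All 3 probe sets of Hspb8 had lower means in old Q92 mice (-0.53 to -0.09, smallest limma adjusted p = 0.631). The 2 probe sets of Hspb1 differed in sign (-0.02 and 0.07). A list of 3 thalamic neuron markers was at -0.35, 0.57 and 0.78 in old wild-type and -0.50, -0.68 and 0.98 in old Q92 mice, and at 0.12, 0.43 and -0.94 and 0.34, -0.61 and -0.13 at 3 months, and the part of thalamic tissue in the Hspb8 values was not tested.

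Cryab, alpha B-crystallin, which oligodendrocytes and astrocytes make in quantity, read 9.73, 10.10 and 9.37 in wild-type and 9.95, 9.82 and 9.73 in Q92 mice at 3 months, and 9.90, 9.84 and 10.16 in wild-type and 9.84, 9.83 and 10.08 in Q92 mice at 18 months. The groups overlapped in every comparison, and the lowest value was that of wt_3m_467. A list of 8 oligodendrocyte markers was also lowest in wt_3m_467, at -0.03, 0.18 and -0.32 in young wild-type, 0.14, 0.21 and 0.04 in young Q92, 0.00, 0.05 and 0.14 in old wild-type and -0.30, -0.08 and -0.02 in old Q92 mice, and its part in the Cryab values was not tested.

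Of the co-chaperones, Stip1 (HOP) passes clients from HSP70 to HSP90. It ran from 8.32 to 8.84 and differed at 18 months by 0.14 (SE 0.12, limma adjusted p = 0.842). St13 (HIP), which slows the release of clients from HSP70, ran from 9.66 to 9.86 and differed by 0.04. All 3 of its probe sets were higher in old Q92 mice, by 0.04 to 0.37 (smallest limma adjusted p = 0.467). Stub1 (CHIP), the ubiquitin ligase of HSP70 and HSP90 clients, read 9.79, 9.79 and 9.97 in wild-type and 9.69, 9.74 and 9.72 in Q92 mice at 3 months, and 9.83, 9.66 and 9.73 in wild-type and 9.70, 9.60 and 9.91 in Q92 mice at 18 months. It differed by -0.0043 at 18 months and -0.13 at 3 months, where its groups did not overlap. With 1 mouse left out the difference at 3 months ran from -0.16 to -0.07, the latter without wt_3m_467. Bag3, the exchange factor that pairs with Hspb8, ran from 5.84 to 6.41 and differed by -0.07. 

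Hsf2, a heat shock factor, was the only member whose brightest probe set lay in the lower 40% of signals, and read 3.53, 3.41 and 3.54 in wild-type and 3.53, 3.35 and 3.60 in Q92 mice at 3 months, and 3.35, 3.18 and 3.35 in wild-type and 3.46, 3.39 and 3.56 in Q92 mice at 18 months. The old Q92 mice were above the old wild-type mice, which were the lowest group, and the difference was 0.18 (SE 0.10, limma adjusted p = 0.702) or 0.06 as the mean of its probe sets.

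At 3 months means were higher in Q92 mice for 15 members and lower for 21 (median -0.03, against -0.02 over all genes). The median was -0.0092 without wt_3m_436, -0.049 without wt_3m_438, -0.045 without wt_3m_467 and -0.011 with each gene read as the mean of its probe sets. The groups did not overlap for 1 member with higher values (2.78%, against 2.49% of all probe sets and 418 of 18193 genes). They did not for 4 with lower values (11.1%, against 4.35% and 790 genes). Dnajb2 was the higher one, and Dnaja3, Hspe1, Stip1 and Stub1 were the lower ones. For the interaction 28 members had a positive value and 8 a negative one, with a median of 0.10 against 0.02 over all genes. This comparison contains both others, so its direction is no separate observation. Its median was 0.063 without Q92_3m_439.

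**Figure D3:**
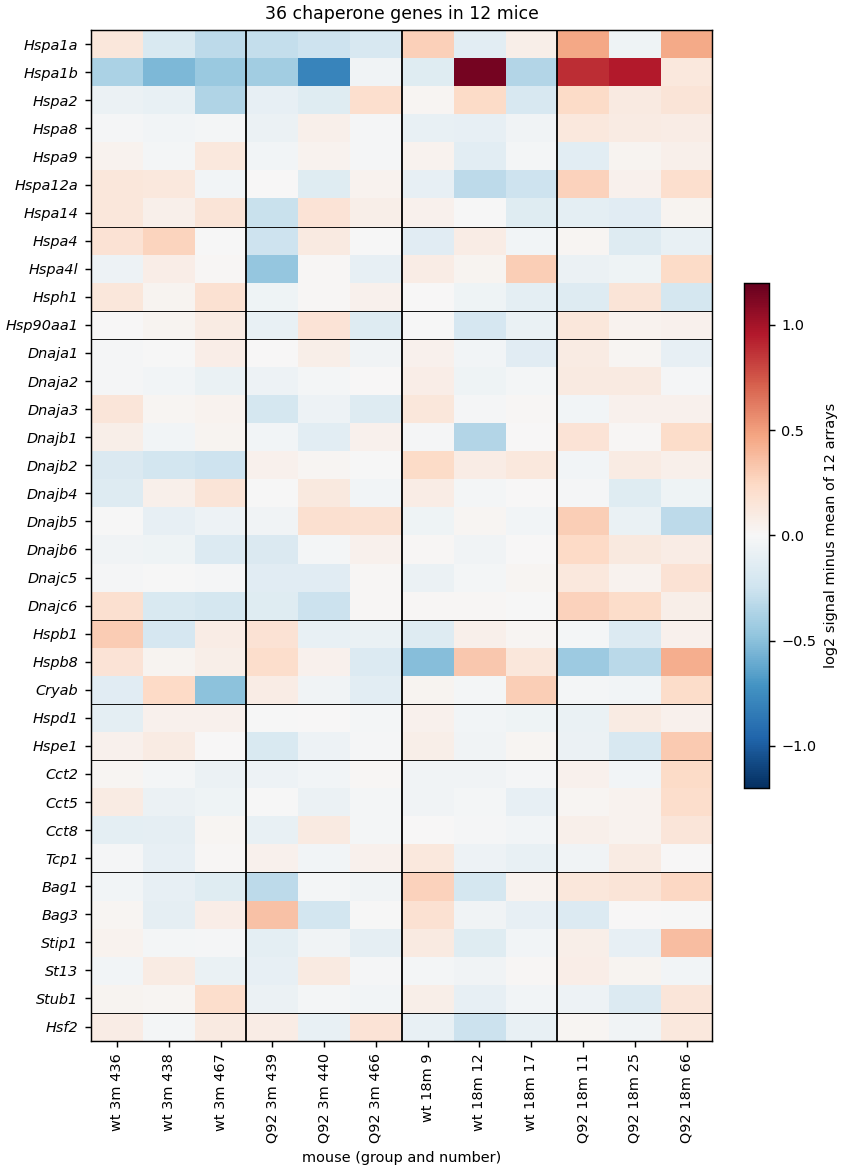
Log2 signal of each of the 36 chaperones in each of the 12 mice, centred on the mean of that gene over all mice, with genes in rows by family and mice in columns by group. The widest range is in the row of Hspa1b, with high values in wt_18m_12, Q92_18m_11 and Q92_18m_25.

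Mice of 18 months were next compared with mice of 3 months within each genotype. In wild type, means were higher at 18 months for 15 members and lower for 21 (median -0.01, as over all genes). The groups did not overlap for 3 members with higher values (8.33%, against 7.53% of all probe sets) and 6 with lower values (16.7%, against 9.40%). With genes read by their brightest probe sets, 1775 of 18193 were higher and 1602 lower without overlap. In Q92 mice, 24 members were higher and 12 lower (median 0.09 against 0.01). The groups did not overlap for 0 members with lower values, against 7.62% of all probe sets and 1369 of 18193 genes. They did not for 10 with higher values (27.8%, against 7.83% and 1823 genes). The 10 were Hspa1a, Hspa1b, Hspa8, Hspa12a, Dnaja3, Dnajb6, Dnajc5, Dnajc6, Cct5 and Bag1. Among their probe sets, 2 of 4 of Hspa8 (-0.60 to 0.11) and 1 of 3 of Dnaja3 (-0.15 to 0.17) were lower at 18 months. So were 1 of 4 of Dnajb6 (-0.12 to 0.40) and 2 of 5 of Dnajc5 (-0.06 to 0.20), while all of Hspa1b, Hspa12a and Dnajc6 were higher. With any 1 of the 6 Q92 mice left out there were 11 to 14 higher and 0 to 2 lower, against 12% to 13.7% and 11.2% to 14.2% of all probe sets. Here too the count could only stay or rise, so it is no check on the 10. The median of the members was 0.052 without Q92_18m_66, 0.058 without Q92_3m_466 and 0.048 with each gene read as the mean of its probe sets. The genotype comparison at 18 months and the age comparison in Q92 mice share the old Q92 arrays, and 6 genes are in both lists of 10.

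The inducible HSP70 genes Hspa1a and Hspa1b, which are near-identical neighbours and are made on heat or other stress, had the largest age differences of the 36 in Q92 mice. Their promoters are shown because the paralogs hold the 2 units GAANNTTC described above. The sequences are the 250 bases before each RefSeq start on GRCm38.p6, on the minus strand, at chr17:34972157-34972406 for Hspa1a and chr17:34959239-34959488 for Hspa1b. Capitals mark GAANNTTC or TTCNNGAA, which has the 2 units in the other order.
Hspa1a: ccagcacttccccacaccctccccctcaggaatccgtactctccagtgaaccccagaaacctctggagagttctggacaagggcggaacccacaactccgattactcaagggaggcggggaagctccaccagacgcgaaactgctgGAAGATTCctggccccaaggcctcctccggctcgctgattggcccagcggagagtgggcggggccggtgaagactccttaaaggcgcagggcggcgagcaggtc
Hspa1b: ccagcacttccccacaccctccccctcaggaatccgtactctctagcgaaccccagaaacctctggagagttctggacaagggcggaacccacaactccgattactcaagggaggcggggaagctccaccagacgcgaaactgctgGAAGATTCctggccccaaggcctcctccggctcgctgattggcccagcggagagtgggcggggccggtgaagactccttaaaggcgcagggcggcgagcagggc
The 2 runs differ at 3 of 250 positions (98.8% identical), counted from 1 at the 5′ end with the base of Hspa1a first: C44T, T47C and T249G. Both hold GAAGATTC at positions 147 to 154. How far the array tells such close copies apart was not tested, so the split of signal between them is uncertain.

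Hspa1b read 5.49, 5.33 and 5.42 in wild-type and 5.45, 5.08 and 5.82 in Q92 mice at 3 months, and 5.72, 7.02 and 5.51 in wild-type and 6.75, 6.81 and 6.00 in Q92 mice at 18 months. Mouse wt_18m_12 was the highest of all, the other old wild-type mice were just above the young wild-type mice, and all 3 old Q92 mice lay above all young Q92 mice. Group means were 5.41 ± 0.08 and 6.08 ± 0.81 in wild type at 3 and 18 months, and 5.45 ± 0.37 and 6.52 ± 0.46 in Q92 (SD, n = 3). The age difference was 1.07 (SE 0.34, 95% interval 0.34 to 1.80, limma adjusted p = 0.259), or 2.10-fold, in Q92 mice. In wild type the age difference was 0.67 (SE 0.34, 95% interval -0.06 to 1.40, limma adjusted p = 0.511). With 1 mouse left out it ran from 0.21, without wt_18m_12, to 0.96, and with a sex term it was 0.88. The genotype difference at 18 months was 0.44 (SE 0.34, 95% interval -0.30 to 1.17, limma adjusted p = 0.826), an interval that holds both 0 and a 2-fold change.

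All 3 probe sets of Hspa1b had higher means at 18 months, by 0.67 to 0.97 in wild type and 1.07 to 1.21 in Q92. In mouse wt_18m_12 the other 2 probe sets read 6.91 and 6.61. A list of 5 choroid plexus and ependyma markers was at -0.70, 1.94 and -1.19 in old wild-type and -0.37, 0.74 and -0.05 in old Q92 mice, and at -0.32, -0.66 and -0.72 and 2.07, -0.59 and -0.14 in young wild-type and Q92 mice. It was high in wt_18m_12 and Q92_18m_25, which were high for Hspa1b, but highest in Q92_3m_439, which read 5.45 for Hspa1b, and it was -0.37 in Q92_18m_11, which read 6.75. The part of choroid plexus in these values was not tested.

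Hspa1a read 5.30, 4.98 and 4.84 in wild-type and 4.87, 4.91 and 4.97 in Q92 mice at 3 months, and 5.45, 5.04 and 5.23 in wild-type and 5.62, 5.11 and 5.61 in Q92 mice at 18 months. The old Q92 mice lay above the young Q92 mice, with Q92_18m_25 the lowest of them, and mouse wt_18m_12 was not high. The age difference was 0.53 (SE 0.16, 95% interval 0.19 to 0.87, limma adjusted p = 0.229) in Q92 mice, or 1.45-fold, and 0.20 (SE 0.16, limma adjusted p = 0.671) in wild type. At 18 months the genotypes differed by 0.21 (SE 0.16, limma adjusted p = 0.814). Mice wt_18m_12 and Q92_18m_25 were the highest pair for Hspa1b but not for Hspa1a.

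**Figure D4:**
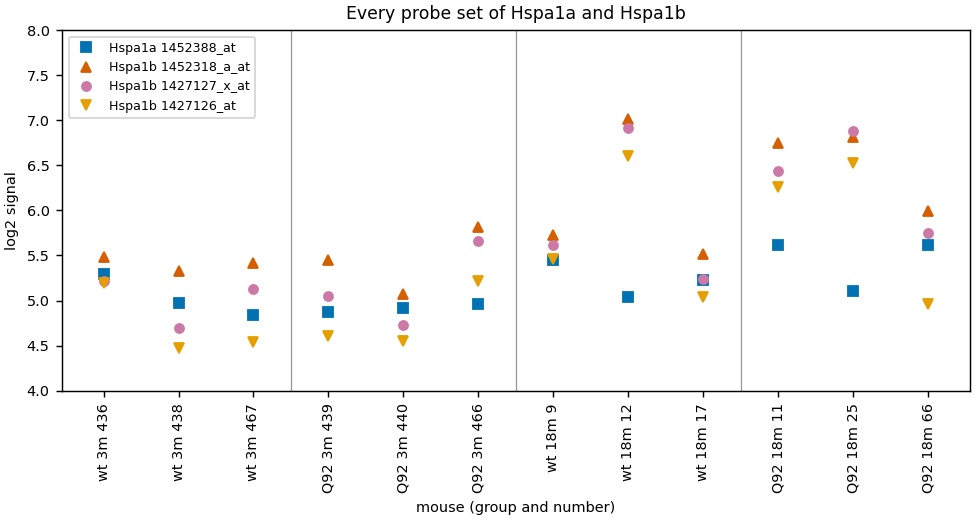
Log2 signal of the single probe set of Hspa1a and the 3 probe sets of Hspa1b in each of the 12 mice, ordered by group. All 3 Hspa1b probe sets are high in wt_18m_12 (6.61 to 7.02) and in Q92_18m_11 and Q92_18m_25, while Hspa1a reads 5.04 and 5.11 in wt_18m_12 and Q92_18m_25.

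Dnajb2 had the smallest p of the members in wild type, with a difference between 18 and 3 months of 0.36 (SE 0.08, 95% interval 0.19 to 0.53, limma adjusted p = 0.182), or 1.28-fold, and its old mice all lay above its young mice. In Q92 it was 0.01 (SE 0.08, limma adjusted p = 0.974). Dnajc6 read 10.37, 9.996 and 9.96 in wild-type and 10.04, 9.92 and 10.19 in Q92 mice at 3 months, and 10.19, 10.20 and 10.18 in wild-type and 10.46, 10.40 and 10.25 in Q92 mice at 18 months. Its old Q92 mice lay above its young Q92 mice, with a difference of 0.32 (SE 0.12, limma adjusted p = 0.345) and 4 of 4 probe sets higher (0.03 to 0.47).

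Bag1, the HSP70 exchange factor that links to the proteasome, read 8.95, 8.89 and 8.84 in wild-type and 8.67, 8.96 and 8.94 in Q92 mice at 3 months, and 9.26, 8.77 and 9.03 in wild-type and 9.12, 9.14 and 9.24 in Q92 mice at 18 months. Its old Q92 mice lay above its young Q92 mice by 0.31 (SE 0.12, limma adjusted p = 0.396), and its old wild-type mice held both the highest and the lowest value of their genotype. The age difference in Q92 mice was 0.20 (SE 0.08, limma adjusted p = 0.413) for Dnajc5, which was 0.07 as the mean of its probe sets, and 0.19 (SE 0.09, limma adjusted p = 0.465) for Dnajb6. In wild type Hspa12a differed by -0.30 (SE 0.10, limma adjusted p = 0.344), Hsf2 by -0.20 (SE 0.10, limma adjusted p = 0.490) and Hsph1 by -0.17 (SE 0.10, limma adjusted p = 0.583), all lower at 18 months. Hsph1 read 10.68, 10.57 and 10.73 in wild-type and 10.49, 10.55 and 10.60 in Q92 mice at 3 months, and 10.55, 10.49 and 10.42 in wild-type and 10.39, 10.70 and 10.33 in Q92 mice at 18 months. The old wild-type mice were below the young wild-type mice. The value for Hsf2 was -0.07 as the mean of its probe sets and -0.12 after quantile normalisation.

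**Figure D5:**
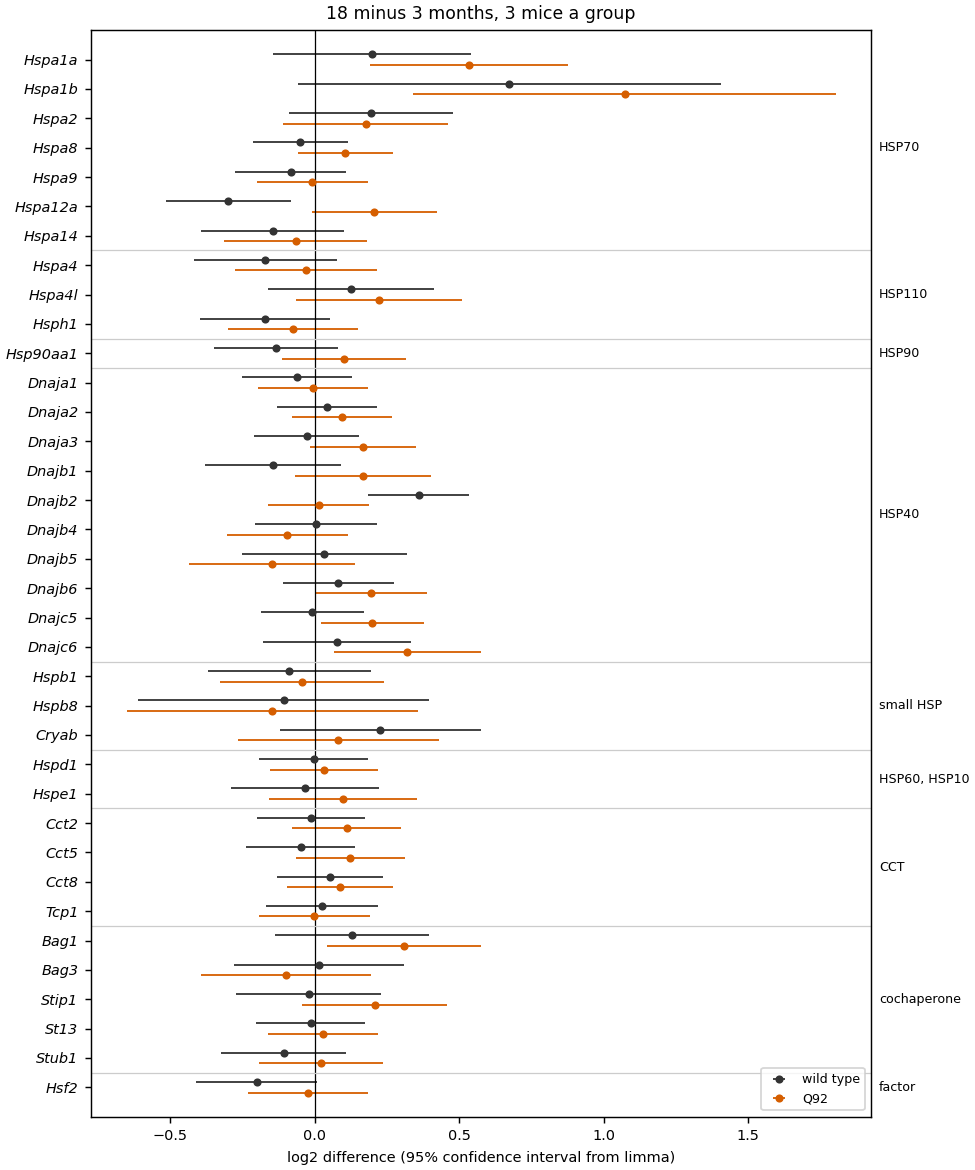
Difference between 18 and 3 months in log2 units for each of the 36 chaperones in wild-type and in Q92 mice, with 95% intervals from limma (n = 3 mice a group). Hspa1b has the highest value in both genotypes (0.67 and 1.07), with the widest intervals.

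The heat shock element was looked for in the promoters of all members, again in the 250 bases before the RefSeq start (GRCm38.p6), of which 30 of 38 members had at least 1. Its form of 2 units, GAANNTTC or TTCNNGAA, on both strands, was in 14 of 44 member promoters (31.8%) against 12.8% of 32851 promoters. The form of 3 units, in which GAA and TTC alternate with 2 free bases between neighbours and either may come first, contains the shorter form and was in 4 of 44 (9.09%) against 0.466%. These 4 belong to Hspe1, Hspd1 and Dnajb6, the last with overlapping promoters of 2 starts, and each stretch is shown as 30-base windows with the matched letters in capitals, at chr1:55088053-55088082 (plus strand for Hspe1, minus strand for Hspd1) and chr5:29735844-29735873 (plus strand for Dnajb6).
Hspe1: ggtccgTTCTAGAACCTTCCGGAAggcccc
Hspd1: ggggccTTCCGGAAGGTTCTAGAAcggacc
Dnajb6: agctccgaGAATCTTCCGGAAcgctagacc
Hspe1 and Hspd1 are a divergent pair that reads the same bases from opposite strands, and their age differences in Q92 mice were 0.10 and 0.03. A match is a description of the letters and no measure of binding.

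The wider chaperone network was read from a list of 60 further genes (other CCT subunits, prefoldin, BAG and DNAJ genes, HSP90 co-chaperones, mitochondrial proteases and others), of which 56 were measured and 0 passed with limma in any comparison. At 18 months 38 means were higher in Q92 mice and 18 lower (median 0.05), or 67.9% higher against 49.6% of all genes. An unadjusted p under 0.05 was reached by 6 (10.7%, against 7.90% of all probe sets and 8.03% of all genes). The groups did not overlap for 4 of the 56 with higher values and 2 with lower values, against 1183 and 1367 of 18193 genes. All 6 prefoldin subunits, which hand nascent actin and tubulin to CCT, had higher means, as did 8 of 9 HSP90 co-chaperones, while 8 of 13 HSP40 genes and 5 of 7 HSP70 co-chaperones had lower ones. Vbp1, a prefoldin subunit, read 9.14, 9.17 and 9.20 in wild-type and 9.14, 9.25 and 9.20 in Q92 mice at 3 months, and 9.34, 9.30 and 9.48 in wild-type and 9.57, 9.52 and 9.75 in Q92 mice at 18 months. The old Q92 mice were above all other mice, with differences of 0.24 between the genotypes at 18 months (limma adjusted p = 0.521) and 0.42 between the ages in Q92 mice (limma adjusted p = 0.103). Ahsa1, the activator of the HSP90 ATPase, read 9.39, 9.31 and 9.42 in wild-type and 9.21, 9.24 and 9.19 in Q92 mice at 3 months, and 9.26, 9.01 and 9.07 in wild-type and 9.35, 9.33 and 9.37 in Q92 mice at 18 months. Its old Q92 mice were above its old wild-type mice by 0.24 (limma adjusted p = 0.505), and at 3 months its Q92 mice were below its wild-type mice by 0.16 (limma adjusted p = 1.00). Cct6a, a CCT subunit, differed at 18 months by 0.19 (limma adjusted p = 0.569). It read 10.49, 10.37 and 10.47 in wild-type and 10.48, 10.41 and 10.42 in Q92 mice at 3 months, and 10.38, 10.43 and 10.32 in wild-type and 10.53, 10.60 and 10.58 in Q92 mice at 18 months, with the old Q92 mice above the old wild-type mice. At 3 months the groups did not overlap for 3 of the 56 with higher values and 4 with lower values, against 418 and 790 of 18193 genes. Hspa12b, a relative of Hspa12a, differed at that age by 0.29, and Bag2, which inhibits Stub1, by -0.45 (limma adjusted p = 1.00 for both). Hspa12b read 4.41, 4.38 and 4.26 in wild-type and 4.52, 4.66 and 4.75 in Q92 mice at 3 months, and 4.34, 4.37 and 4.45 in wild-type and 4.41, 4.30 and 4.56 in Q92 mice at 18 months, with the young Q92 mice above the young wild-type mice. Bag2 read 4.91, 4.39 and 4.44 in wild-type and 4.38, 4.23 and 3.77 in Q92 mice at 3 months, and 4.56, 4.32 and 4.43 in wild-type and 4.86, 4.37 and 4.88 in Q92 mice at 18 months. Mouse Q92_3m_466 was the lowest. In wild type the age difference was -0.26 for Ahsa1 (limma adjusted p = 0.339), 0.29 for Dnajc18 (limma adjusted p = 0.369) and 0.33 for Hspb6, a small heat shock protein (limma adjusted p = 0.447). Dnajc18 read 7.22, 7.23 and 7.25 in wild-type and 7.23, 7.27 and 7.46 in Q92 mice at 3 months, and 7.52, 7.70 and 7.36 in wild-type and 7.54, 7.40 and 7.39 in Q92 mice at 18 months, and its old wild-type mice were above its young ones. Hspb6 read 5.29, 5.22 and 5.47 in wild-type and 5.41, 5.23 and 5.28 in Q92 mice at 3 months, and 5.54, 6.02 and 5.41 in wild-type and 5.62, 5.65 and 5.78 in Q92 mice at 18 months, with wt_18m_12 the highest and some overlap between the wild-type groups. In Q92 mice it was 0.58 for Bag2 (limma adjusted p = 0.273) and 0.35 for the prefoldin subunit Pfdn5 (limma adjusted p = 0.278). Pfdn5 read 9.86, 10.005 and 9.83 in wild-type and 9.70, 9.90 and 9.93 in Q92 mice at 3 months, and 10.07, 10.09 and 10.01 in wild-type and 10.15, 9.99 and 10.43 in Q92 mice at 18 months, with the old Q92 mice above the young Q92 mice. The interaction was 0.40 for Ahsa1 (limma adjusted p = 0.929), 0.72 for Bag2 and -0.30 for Lonp1, a mitochondrial protease (limma adjusted p = 0.946 for both). Lonp1 read 7.76, 7.72 and 7.96 in wild-type and 7.86, 7.94 and 7.85 in Q92 mice at 3 months, and 8.01, 7.79 and 7.76 in wild-type and 7.59, 7.66 and 7.63 in Q92 mice at 18 months, with the old Q92 mice the lowest of the 12. Between the ages in Q92 mice 42 of the 56 were higher and 14 lower (median 0.10), or 75% higher against 51.9% of all genes. An unadjusted p under 0.05 was reached by 9 (16.1%, against 10.6% of all probe sets and 12.4% of all genes). The age groups of Q92 mice did not overlap for 8 with higher values and 3 with lower values, against 1823 and 1369 of 18193 genes. In wild type 28 were higher and 28 lower. The groups did not overlap for 6 and 2 of these, against 1775 and 1602 of 18193 genes.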

How the data were processed

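Striatal RNA of 12 mice was hybridised to 1 array each. The values deposited by the authors are log2 signals per probe set; the submitters' processing notes name RMA and the affy package, with no version, and the sources used here do not say whether all arrays went through RMA as 1 set. Array medians ran from 4.96 to 5.01. After RMA a difference is read against the rest of the array's genes. The values were used as deposited. Of 45101 probe sets, 64 controls were left out, and the probe table given with the series paired 34945 with 1 gene. The members and gene lists were chosen with earlier results of these data known, so directions seen here are descriptions.

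One limma 3.58.1 model (R 4.3.3) estimated 4 group means from all 12 arrays (8 residual and 4.50 prior degrees of freedom), and p-values were adjusted by Benjamini-Hochberg over 45037 probe sets within each of 5 comparisons at 0.05. Every count of members is of brightest probe sets. Among the 27 members with more than 1 probe set, the probe sets differed in sign for 15 between genotypes at 18 months. The number was 17 at 3 months, 16 for age in wild type, and 11 each for age in Q92 mice and the interaction. Given with all values were members that passed and the 5 with the smallest p per comparison, and of the other chaperone genes the 3 with the smallest p. Other genes are named as members or chosen after their values were seen. Precision is limited by 3 arrays a group (median SE 0.122, and 0.172 for the interaction, the genotype difference at 18 months minus that at 3 months), and intervals are from limma. On simulated data of 45037 probe sets with the comparison at 18 months, 22, 43, 48 and 50 of 50 changed probe sets were recovered at log2 differences of 0.5, 1, 1.5 and 2, with 12 false calls. Alternatives were quantile normalisation, a common median, no dim probe sets, a robust prior with an intensity trend, weighted arrays, a sex term, only the arrays compared, other probe set rules and each array left out. An 18S covariate, both low-correlation arrays left out, a block for age in days (genotype comparisons only), averaged comparisons and counts of members without each array were chosen after seeing the data. Promoters are those of RefSeq on GRCm38.p6.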

Additional observations from a re-analysis of the deposited data

How the results depend on the processing

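In 17 alternatives for each age comparison, 18 for each genotype comparison and 23 for the interaction of genotype and age, 0 of 36 members passed, and the 5 members with the smallest p in each comparison kept their direction. The lowest adjusted p was 0.156 for genotype at 18 months, 0.934 at 3 months, 0.438 for the interaction, 0.102 for age in wild type and 0.0914 for age in Q92 mice. The median over the members moved by more than the spread between replicates as follows, and the cause was not tested. For the interaction (0.10) it was 0.075 with array weights and 0.063 to 0.14 with 1 mouse left out. For age in Q92 mice (0.092) it was 0.057 with array weights, 0.048 with the mean of a gene's probe sets, 0.052 without wt_3m_467 and Q92_18m_66, which was chosen after seeing the data, and 0.052 to 0.11 with 1 mouse left out. For genotype at 18 months (0.046) it was 0.083 with a block for age in days, chosen after seeing the data, and 0.037 to 0.094 with 1 mouse left out. For age in wild type (-0.013) it moved by less than that spread but changed sign, from -0.032 to 0.0023, with the mouse left out. The groups compared share no animal numbers, so no pairing was fitted. The block for age in days is no pairing either, since at 18 months it leaves Q92_18m_11 against wt_18m_12 and wt_18m_17. With 3 arrays a group, differences well above the median SE of 0.122 could also be missed. The difference of 0.40 for Hspa12a between genotypes at 18 months did not pass (limma adjusted p = 0.242). In the simulation 22 of 50 differences of 0.5 were recovered. That size was larger than any member's difference at 18 months (highest 0.44), so recovery at the members' sizes was not simulated. The planted differences of up to 2 also ease the adjusted threshold, so the simulated recovery may be higher than that in these data. One member, Hsf2, was read at a low signal.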

Other observations

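Averaged over both genotypes, a comparison chosen after seeing the data, 18-month and 3-month mice gave 0 of 36 chaperones past limma's adjusted threshold, against 0.444% of all probe sets, and 6 at an unadjusted p under 0.05 (16.7%, against 16.0%). Hspa1b differed by 0.87, or 1.83-fold (limma adjusted p = 0.127), Dnajb2 by 0.19 (limma adjusted p = 0.160) and Hspa1a by 0.37, or 1.29-fold (limma adjusted p = 0.160). Bag1 differed by 0.22 (limma adjusted p = 0.253), Dnajc6 by 0.20 (limma adjusted p = 0.275) and Dnajb6 by 0.14 (limma adjusted p = 0.307). Averaged over both ages, Q92 and wild-type mice gave 0 of 36 past the limma threshold, against 0.0244%, and 0 at an unadjusted p under 0.05, against 5.55%. Hspa12a differed by 0.14 (limma adjusted p = 0.907).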
